A study of Mus musculus with 78 samples.

Results

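The genes described here are CEBPB, a transcription factor of the liver, SOCS3, an inhibitor of cytokine signalling, and genes of the acute phase response: APCS, CRP, HP, LCN2, ORM3, SAA1, SAA2 and STEAP4. They were taken by name as a fixed set of 10 of the 2755 genes on the panel, and all 10 are among the 2205 genes that were tested.

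Livers of male B6C3F1 mice were measured by TempO-Seq, in which pairs of detector oligos are ligated on a target RNA and the ligated products are sequenced. The RNA came from archived liver sections fixed in formalin and embedded in paraffin, with 1 library per mouse. Treated mice drank dichloroacetic acid (DCA), a by-product of water disinfection that inhibits pyruvate dehydrogenase kinase, at 3.5 g/L from the age of 4 weeks. Controls drank water without DCA, and the number after each group name is the week of the study at which the liver was taken. S1 mice had DCA for 10 weeks and were sampled at that time (S1-10, 6 mice) or after 22, 47 and 68 weeks back on water (S1-32, S1-57 and S1-78, 6 mice each). S2 mice had DCA for 32 weeks and were sampled then (S2-32, 6 mice) or after 46 weeks on water (S2-78, 4 mice). S3 mice had DCA for 57 weeks and were sampled then (S3-57, 5 mice) or after 21 weeks on water (S3-78, 4 mice), and Direct-78 mice had DCA for all 78 weeks (3 mice). Control livers were taken at 10 weeks (Control-10, 4 mice) and at 32, 57 and 78 weeks (Control-32, Control-57 and Control-78, 6 mice each). Each liver is a bulk sample, so fewer cells of a type and less RNA per cell cannot be told apart.

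The acute phase response is the change in secreted proteins that the liver makes when cytokines from injured or inflamed tissue reach the hepatocyte. Interleukin 6 acts through STAT3 and interleukin 1 through NF-kB, and the C/EBP factors bind the promoters of many acute phase genes. In the mouse the serum amyloid A proteins and serum amyloid P are the major reactants, while C-reactive protein, the major one in people, responds little.

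Depth differed between libraries, with total counts of 541245 at the least and 4285848 at the most, and a median of 2162678. Levels are given as CPM, counts scaled by the TMM-adjusted library total, and a gene is said to have risen or fallen only where edgeR gave a Benjamini-Hochberg adjusted p of at most 0.05 over all 2205 genes with a fold change over 1.5. The libraries of S1-32 were deeper than every Control-32 library (2979117 to 3914572 against 721372 to 2731045 counts). Those of S3-57, S3-78 and Direct-78 were shallower than every control of their age, and in Direct-78 the totals were 541245 to 699825 counts against 2098777 to 4285848 in Control-78. Direct-78 libraries were also shallower than every S3-78 library (1154431 to 1936370 counts), and Control-57 libraries deeper than every Control-10 library. In these 6 comparisons depth cannot be told apart from treatment or age. The same holds where the change in Direct-78 against Control-78 is set against the change in S1-10 against Control-10. The kept libraries farthest from the mean profile were Control-32 mouse 75, Direct-78 mouse 66, S2-78 mouse 47, Direct-78 mouse 64 and Control-10 mouse 68, with squared Spearman correlations of 0.628, 0.641, 0.703, 0.711 and 0.747. Markers of exocrine pancreas were high in S1-10 mouse 17, S1-78 mouse 36 and S2-78 mouse 47, and without those libraries no called member lost its call. On unscaled totals, S1-32 mouse 19 was at 3373 CPM of these markers against 223 to 629 CPM in the other S1-32 mice. This mouse lay under the limit and was kept in that fit. In Control-32, MUP8, a major urinary protein gene, made up 43.8%, 41.6% and 44% of counts in mice 75, 76 and 78, and squared correlations with the mean profile were 0.628 to 0.947, whereas in S1-32 they were 0.904 to 0.921 and the largest share of any gene was 20.5% (SAA1 in mouse 23). Hepatocyte markers were present in all groups: the 11 genes together came to 39949 to 90466 CPM (median 73434) in S3-57, the group with the lowest library, and to 103646 to 151095 CPM (median 125128) in S2-32. The panel is named an attenuation panel by the submitters, so levels of different genes are set side by side only to name the largest part of a marker sum or of a library. Counting intervals and floors cover counting error only.

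Among the comparisons with age-matched controls, that of mice 22 weeks off DCA held the most called members, 7 of 10, and also the most called genes of the panel (11.9% higher and 17.2% lower). At week 32, S1 mice had higher SAA1, SAA2, LCN2, HP, APCS and CRP and lower CEBPB than Control-32, and with the depth covariate SAA1, SAA2, LCN2 and HP kept their calls while APCS, CRP and CEBPB lost theirs. In mice still on DCA at that age, ORM3 alone of the 10 genes fell (beside 7.21% of all genes lower), and in mice on DCA for 78 weeks SAA1, SAA2, APCS and CRP fell (beside 18.7%), 4 calls that were lost with the depth covariate. The plot of all 10 genes by mouse shows these levels with the spread inside each group.

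**Figure D1:**
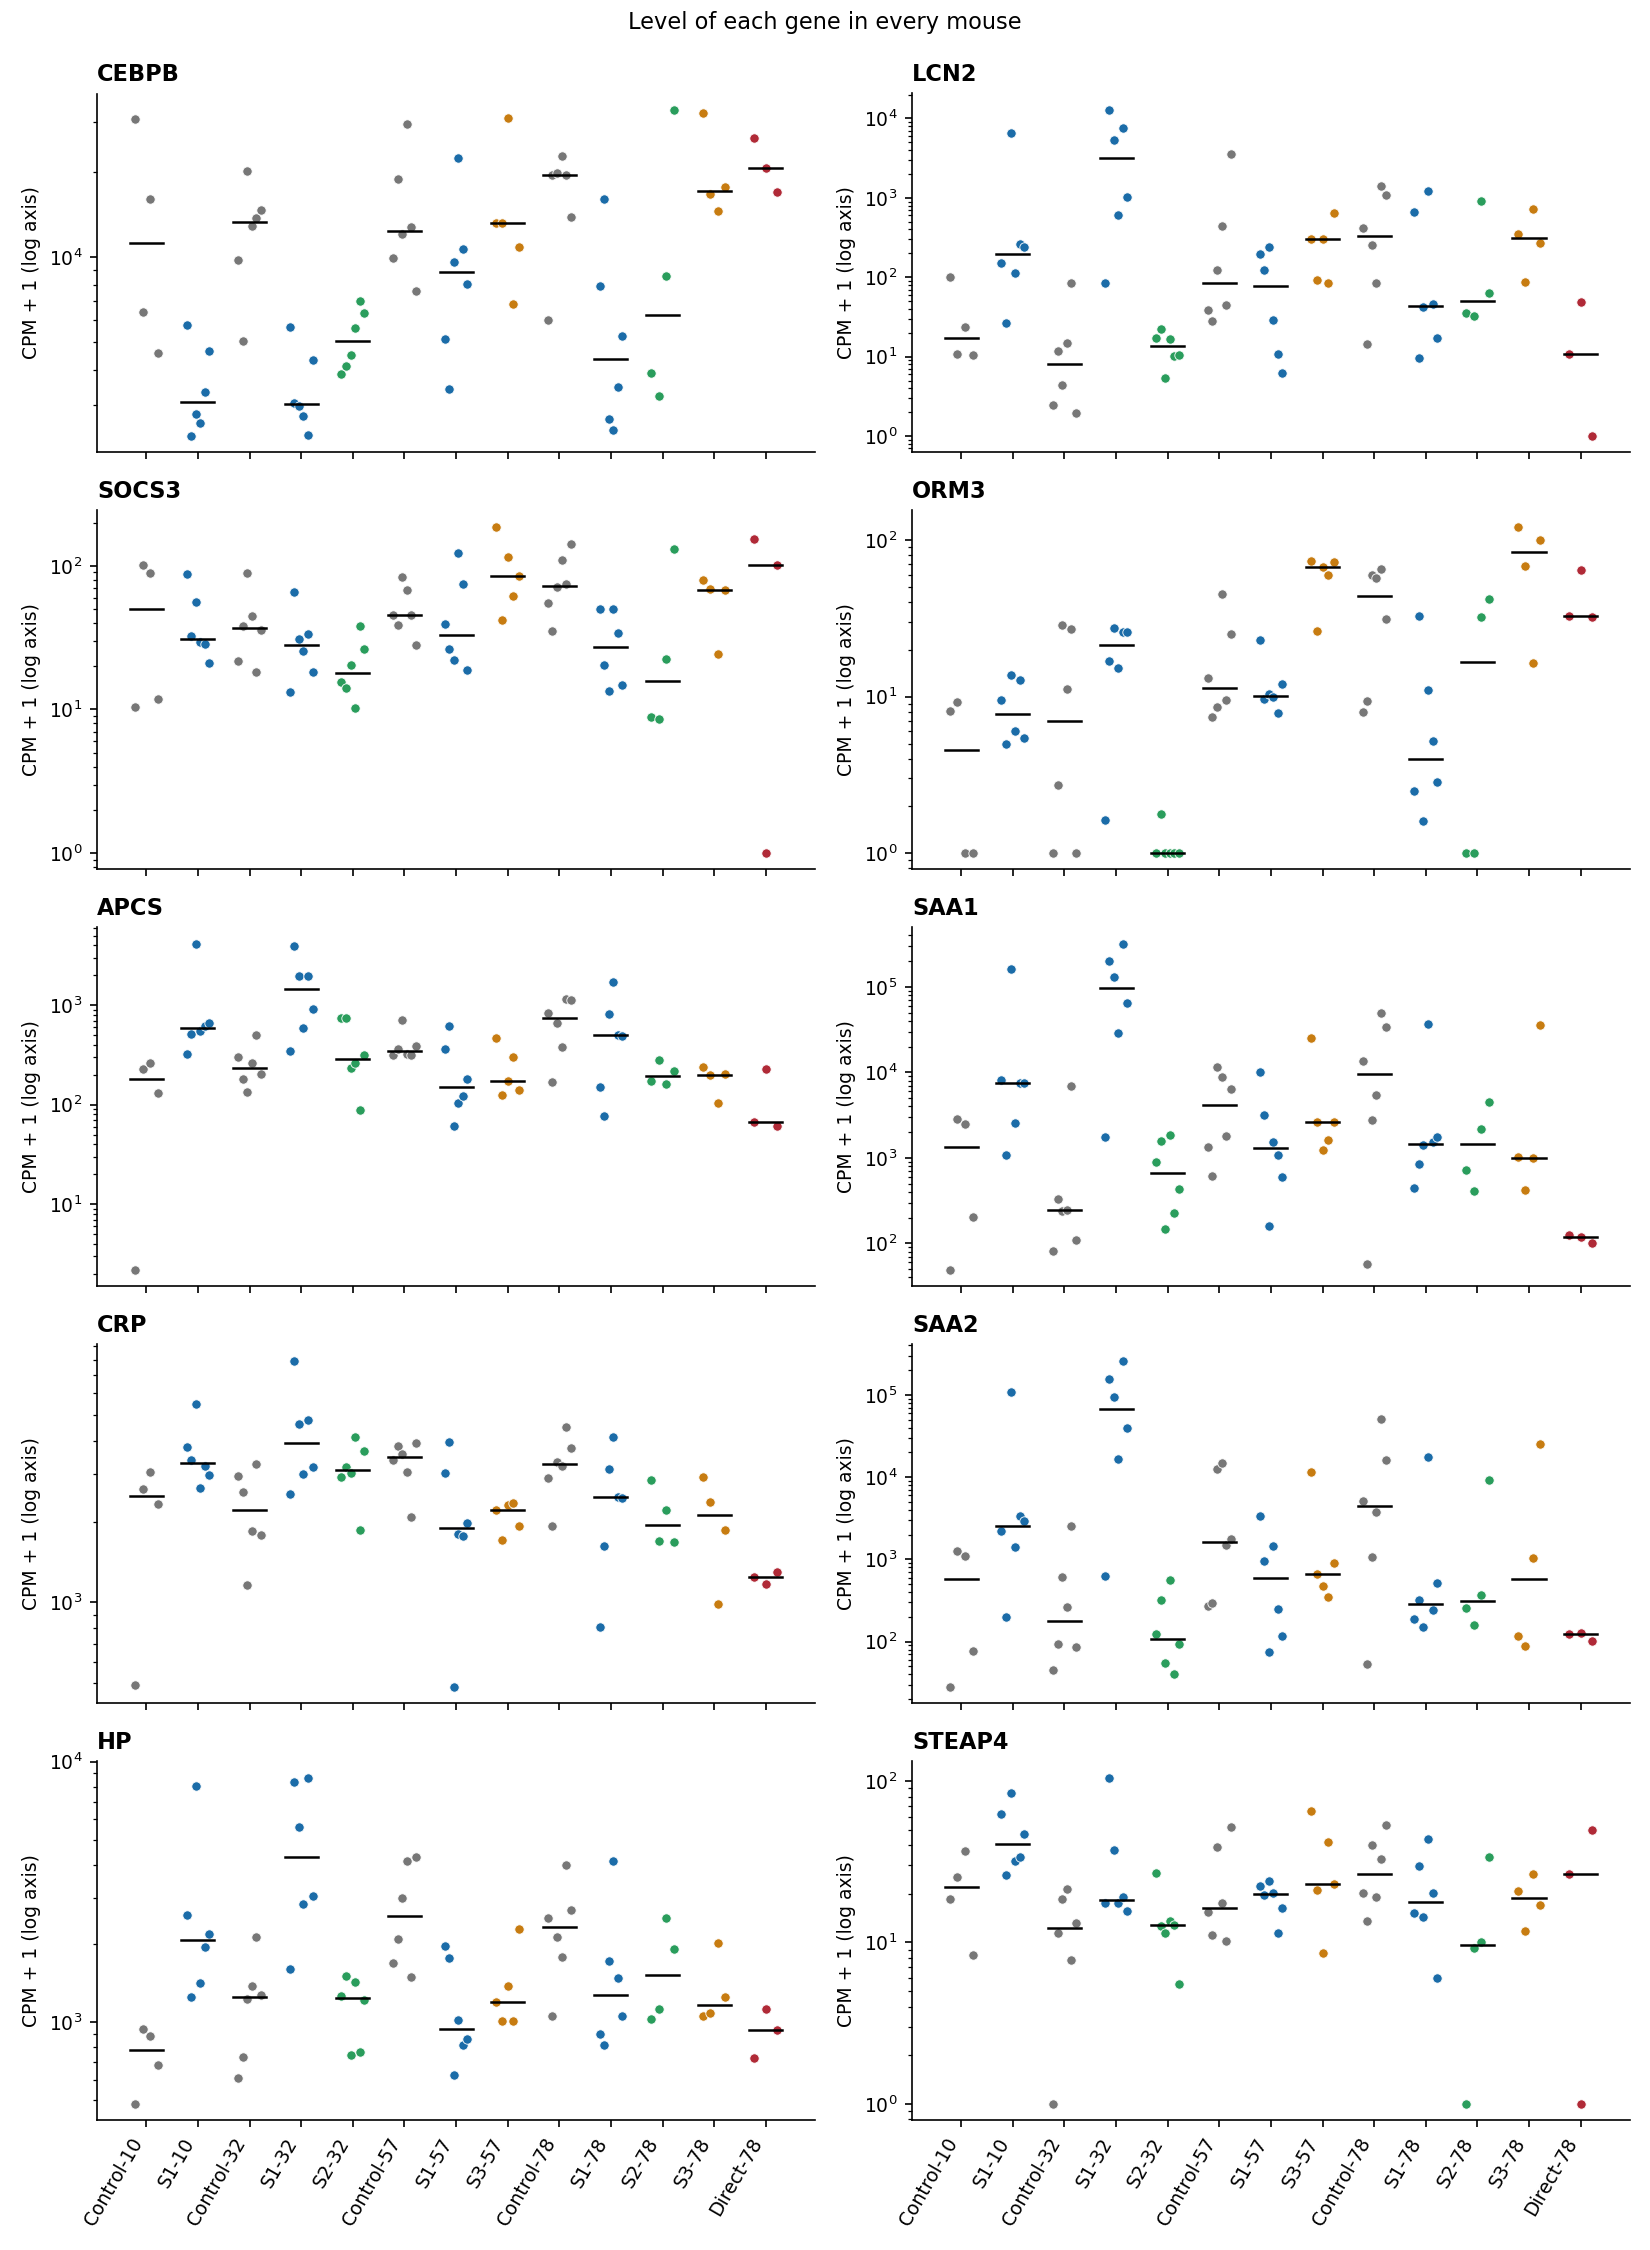
Level of each of the 10 genes in every mouse, 1 panel per gene, with the group on the horizontal axis and CPM plus 1 on a logarithmic vertical axis; points are mice, black bars group medians, grey marks controls, blue S1, green S2, orange S3 and red Direct. SAA1 reached 319258 CPM in S1-32 mouse 23 and lay at 123, 117 and 98.6 CPM in the 3 Direct-78 mice.

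Spread between mice of 1 group differed widely among the members. The within-group SD of log2 CPM was 2.60 for SAA2, 2.27 for SAA1 and 2.23 for LCN2, ranks 11, 18 and 19 of 2205 genes, whereas it was 0.63 for CRP, 0.66 for HP and 0.83 for CEBPB. With the 13 groups in order of their median, the ranges of all 12 pairs of neighbours overlapped for every member except ORM3, where 11 of 12 did. For CEBPB the order ran from Direct-78 (median 20609 CPM) and Control-78 (19508 CPM) down to S1-10 (3075 CPM) and S1-32 (3023 CPM). For SAA1 S1-32 came first (median 97290 CPM) and Direct-78 last (117 CPM), so these 2 groups held opposite ends of the orders of CEBPB and SAA1, while Control-78 was next to the top in both. Single mice were high or low in most members at the same time: S1-10 mouse 15 and S1-78 mouse 34 were each the highest of their group in 8 of 10 members, and Control-78 mouse 86 and S1-32 mouse 19 were each the lowest of theirs in 8 of 10.

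On the reference annotation (GENCODE, GRCm38) Saa1 and Saa2 are neighbours on chromosome 7, 8809 bases apart, and Crp and Apcs lie on chromosome 1 with 60929 bases between them. Saa1 and Saa2 also resemble each other upstream: the 250 bases before their starts are 94.8% identical (238 identical positions, 11 mismatches and 2 gaps). Promoter sequence from RefSeq (GRCm38.p6) was found for 9 of the 10 members, the remaining one being Hp, and is shown for the SAA pair, whose levels moved together, and for Orm3 and Apcs. These 2 were called with the SAA pair in some comparisons, and without it in S2-32 against Control-32 (ORM3) and S1-10 against Control-10 (APCS). Saa1 is read from chr7:46742981-46743230, minus strand, Saa2 from chr7:46751583-46751789, plus strand (207 bases that end 43 bases before the RefSeq start and directly before the GENCODE start), Orm3 from chr4:63355908-63356157, plus strand, and Apcs from chr1:172895055-172895304, minus strand. All are written 5′ to 3′ in lower case, and capitals mark matches on either strand to a C/EBP motif (TTGCNNAA), a STAT motif (TTCNNNGAA) or the NF-kB consensus.
Saa1: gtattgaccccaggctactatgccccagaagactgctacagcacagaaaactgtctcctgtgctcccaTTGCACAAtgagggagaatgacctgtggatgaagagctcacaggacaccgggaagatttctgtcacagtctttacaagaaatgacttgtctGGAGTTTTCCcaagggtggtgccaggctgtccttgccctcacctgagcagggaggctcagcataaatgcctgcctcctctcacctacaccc
Saa2: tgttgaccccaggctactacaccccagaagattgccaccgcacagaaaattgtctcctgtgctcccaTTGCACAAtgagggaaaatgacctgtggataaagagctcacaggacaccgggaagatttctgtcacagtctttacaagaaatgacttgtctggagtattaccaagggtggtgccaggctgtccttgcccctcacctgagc
Orm3: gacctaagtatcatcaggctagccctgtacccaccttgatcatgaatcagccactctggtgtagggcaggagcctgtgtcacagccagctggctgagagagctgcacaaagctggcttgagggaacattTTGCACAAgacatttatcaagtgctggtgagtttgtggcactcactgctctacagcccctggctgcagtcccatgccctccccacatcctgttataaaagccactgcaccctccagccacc
Apcs: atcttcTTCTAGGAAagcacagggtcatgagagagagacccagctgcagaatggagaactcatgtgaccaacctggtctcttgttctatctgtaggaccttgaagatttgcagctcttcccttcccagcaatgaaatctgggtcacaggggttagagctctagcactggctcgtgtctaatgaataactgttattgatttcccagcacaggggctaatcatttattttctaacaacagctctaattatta
The C/EBP motif stood 174 bases before the RefSeq start of Saa1, 175 before Saa2, 113 before Orm3, 208 before Lcn2 and 79 before Steap4. The STAT motif stood 145 bases before Socs3, 235 before Apcs and 107 before Steap4, and the NF-kB consensus 81 bases before Saa1, 33 before Lcn2, and 240 and 216 before Steap4. Windows of 250 bases hold the C/EBP motif in 9.56%, the STAT motif in 7.02% and the NF-kB consensus in 9.55% of 32851 promoters. A match describes letters in the window and no more.

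Mice sampled at the end of 10 weeks of DCA were compared with Control-10 to ask what the first weeks of exposure do. HP and APCS were higher and CEBPB was lower in the treated mice, 3 of 10 members called by edgeR (2 higher beside 1.09% of all genes, 1 lower beside 4.4%). HP, haptoglobin, which binds free hemoglobin in plasma, measured 484, 935, 885 and 680 CPM in the 4 Control-10 mice and 1247 to 8085 CPM with a median of 2063 in the 6 S1-10 mice. APCS, which encodes serum amyloid P, measured 1.18, 227, 264 and 129 CPM in the 4 Control-10 mice and 322 to 4140 CPM with a median of 586 in the 6 S1-10 mice. All 6 treated mice were above all 4 controls for both genes, with S1-10 mouse 15 far above the rest (8085 CPM of HP and 4140 of APCS) and Control-10 mouse 68 low (1.18 CPM of APCS). The log2 fold change was 1.96 ± 0.48 (SE; adjusted p = 0.0128) for HP and 2.87 ± 0.81 (SE; adjusted p = 0.0266) for APCS. CEBPB measured 30679, 6393, 16026 and 4570 CPM in the 4 Control-10 mice and 2335 to 5758 CPM with a median of 3075 in the 6 S1-10 mice. Control-10 mouse 68 was the highest control for CEBPB, 1 of the other controls lay inside the treated range, and CEBPB fell by 2.01 ± 0.52 on the log2 scale (SE; adjusted p = 0.017).

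The serum amyloid A genes SAA1 and SAA2, whose proteins ride on high-density lipoprotein in inflammation, did not pass the edgeR test at 10 weeks. In this comparison 6 members had an unadjusted p under 0.05 and DESeq2 called 6. SAA1 measured 47.8, 2876, 2493 and 203 CPM in the 4 Control-10 mice and 1068 to 159953 CPM with a median of 7521 in the 6 S1-10 mice, with a log2 fold change of 4.47 ± 1.65 (SE; adjusted p = 0.0978). LCN2, lipocalin 2, a protein that binds bacterial siderophores, measured 100, 9.91, 22.4 and 9.47 CPM in the 4 Control-10 mice and 25.9 to 6491 CPM with a median of 195 in the 6 S1-10 mice, with a log2 fold change of 5.10 ± 1.67 (SE; adjusted p = 0.0581). Both ranges overlapped, and mouse 15 again held the top values (159953 CPM of SAA1 and 6491 of LCN2). With this mouse the S1-10 means were 31128 CPM of SAA1, 1213 of LCN2 and 19573 of SAA2. These lay far above the medians of 7521, 195 and 2556 CPM, so the fold changes lean on 1 mouse. SAA2 at 5.01, STEAP4 at 1.13, ORM3 at 1.01, CRP at 0.75 and SOCS3 at -0.32 (log2 fold changes) had adjusted p from 0.112 to 0.823. The median log2 fold change was 1.55 over the 10 genes and -0.03 over all 2205 genes. The 3 calls rested on few libraries. Without Control-10 mouse 68, CEBPB was -1.33 (adjusted p = 0.376), APCS 2.46 (adjusted p = 0.207) and HP 1.80 (adjusted p = 0.138), so 0 members were called by edgeR. Without S1-10 mouse 15, APCS was 1.77 (adjusted p = 0.163) and HP 1.30 (adjusted p = 0.0884), and without Control-10 mouse 72 APCS was 2.79 (adjusted p = 0.0507). With only the groups compared in the model APCS was 2.85 (adjusted p = 0.108). CYP3A11, a drug-metabolizing enzyme that the acute phase lowers, fell by 1.83 (adjusted p = 0.0206), the single call among 8 negative acute phase genes, and without Control-10 mouse 68 it was -2.04 (adjusted p = 0.0761). Of 15 other positive acute phase proteins 3 rose, among them LRG1 by 2.60 (adjusted p = 0.024), a leucine-rich glycoprotein of plasma, and that call was lost without S1-10 mouse 15 at 1.81 (adjusted p = 0.117), Control-10 mouse 68 at 2.38 (adjusted p = 0.207) or Control-10 mouse 72 at 2.44 (adjusted p = 0.0502). None of the 11 genes of IL6 and STAT3 signalling or the 21 of IL1, TNF and NF-kB signalling was called by edgeR. Beside the counts of these lists stand 1.09% of all genes called higher and 4.4% lower.

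Few cell type markers were called at 10 weeks, and none of the hepatocyte, neutrophil or macrophage lists (beside 1.09% of all genes higher and 4.4% lower). COL1A1, a fibrillar collagen chain, measured 19.3 to 60.7 CPM (median 42.5) in S1-10 and 101 to 224 CPM (median 197) in Control-10 and fell by 2.05 (adjusted p = 0.0338). TIMP1, an inhibitor of matrix proteases, measured 0 to 4.84 CPM in S1-10, where floors are 1.38 to 2 CPM, and 6.03 to 31.3 CPM in Control-10, and fell (adjusted p = 0.046). AMY1, an amylase, rose by 2.18 (adjusted p = 0.0302), and CD4, a T cell receptor partner, was at 1.21 to 7.32 CPM in S1-10 and at 0 in all 4 Control-10 mice (floors of 1.29 to 1.77 CPM, adjusted p = 0.024). With 1 of 10 libraries left out COL1A1 ran from -2.24 to -1.89 and lost its call in 9 fits, TIMP1 from -3.71 to -2.61 in 7, and AMY1 from 1.85 to 2.58 in 5. The call of CD4 was lost without Control-10 mouse 68 at 6.26 (adjusted p = 0.163) and its direction turned with all deposited libraries (-1.48).

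At week 32, 22 weeks after DCA ended, the same design asks what remains of an early exposure. This comparison held more called members than any other of the 9 against age-matched controls: 6 of 10 were higher (beside 11.9% of all genes) and 1 was lower (beside 17.2%). SAA1 measured 81.1 to 6935 CPM with a median of 242 in the 6 Control-32 mice and 1729 to 319258 CPM with a median of 97290 in the 6 S1-32 mice. SAA2 measured 44.2 to 2572 CPM with a median of 175 in the 6 Control-32 mice and 620 to 260790 CPM with a median of 67110 in the 6 S1-32 mice. In 5 of the 6 S1-32 mice both genes were above every control, while mouse 19 (1729 CPM of SAA1) lay below the highest control, mouse 77 (6935 CPM). SAA1 rose by 6.55 ± 1.53 (SE; adjusted p = 0.00185) and SAA2 by 7.28 ± 1.79 (SE; adjusted p = 0.00268) on the log2 scale. Counts of SAA1 and SAA2 together made up 37.3% of all counts in mouse 23 (95% Clopper-Pearson interval 37.24 to 37.35), 26.4% in mouse 20 (26.35 to 26.43) and 17.3% in mouse 21 (17.24 to 17.32). In mouse 19 they made up 0.198% (0.1936 to 0.2025), and in Control-32 mouse 77 0.724% (0.7144 to 0.7345). Without Control-32 mouse 77 the log2 fold change of SAA1 was 9.22 (adjusted p = 0.00021) and that of SAA2 8.65 (adjusted p = 0.0016). Without S1-32 mouse 23 they were 5.99 (adjusted p = 0.00468) and 6.62 (adjusted p = 0.00621).

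**Figure D2:**
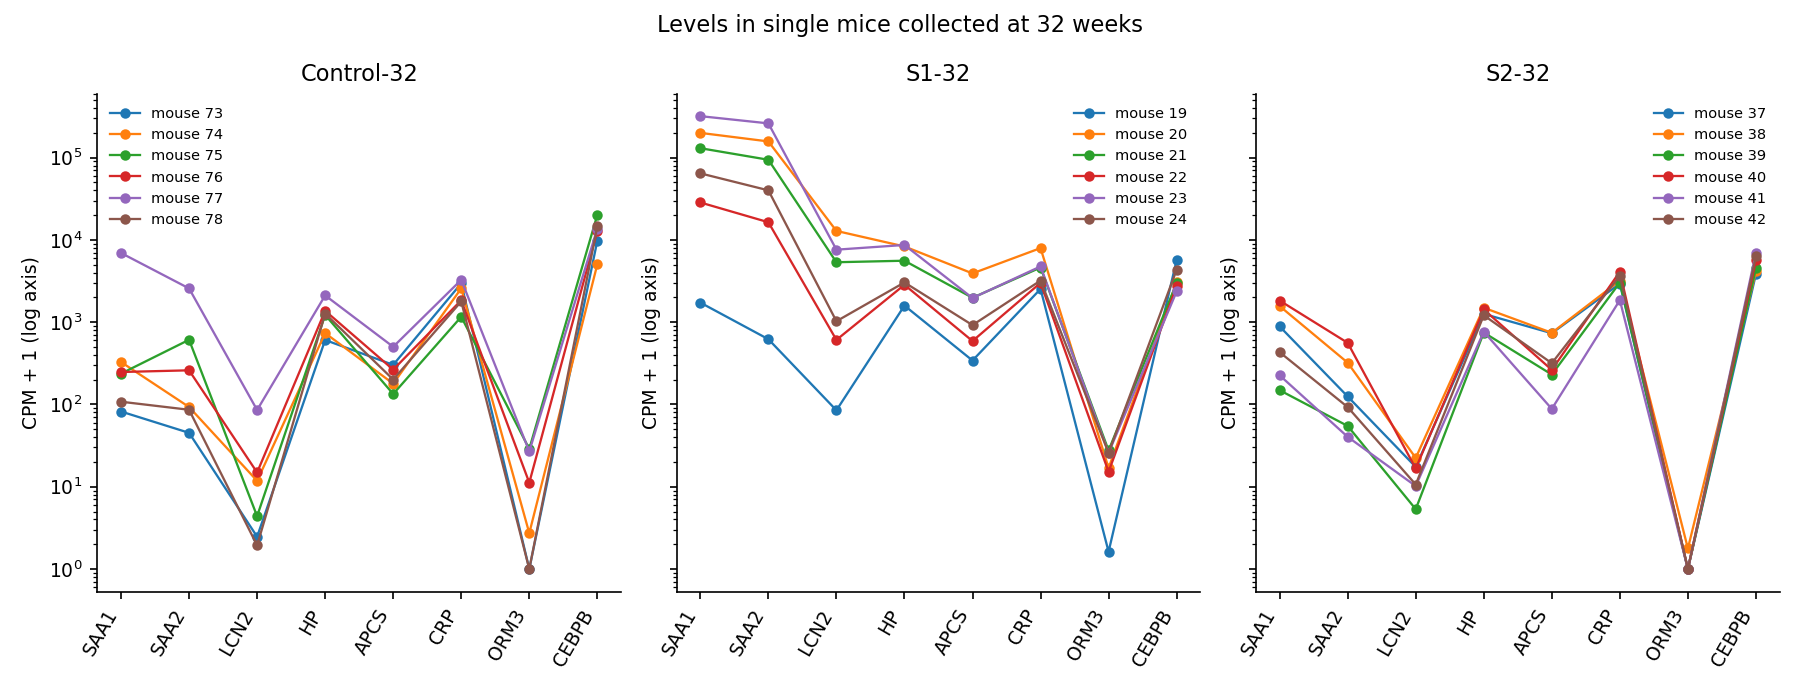
Levels of SAA1, SAA2, LCN2, HP, APCS, CRP, ORM3 and CEBPB in each mouse at week 32, with the genes on the horizontal axis and CPM plus 1 on a logarithmic vertical axis; each line is 1 mouse of Control-32, S1-32 or S2-32. The line of S1-32 mouse 19 runs at 1729 CPM of SAA1 and 83.9 CPM of LCN2, below the 5 other S1-32 mice, and at the highest CEBPB of its group (5685 CPM).

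LCN2, HP and APCS rose with the SAA genes. LCN2 measured 0.936 to 84.6 CPM with a median of 7.1 in the 6 Control-32 mice and 83.9 to 12857 CPM with a median of 3189 in the 6 S1-32 mice. HP measured 606 to 2115 CPM with a median of 1247 in the 6 Control-32 mice and 1590 to 8679 CPM with a median of 4313 in the 6 S1-32 mice. For these genes and for APCS (133 to 501 CPM, median 232, in Control-32, 341 to 3914 CPM, median 1442, in S1-32) the pattern was that of SAA1: 5 of 6 treated mice above every control and mouse 19 inside the control range. The log2 fold change was 7.83 ± 1.59 (SE; adjusted p = 0.000453) for LCN2, 2.04 ± 0.42 (SE; adjusted p = 0.000497) for HP and 2.62 ± 0.68 (SE; adjusted p = 0.0042) for APCS. LCN2 was 9.43 (adjusted p = 0.00023) without Control-32 mouse 77 and 7.18 (adjusted p = 0.00153) without S1-32 mouse 20, and APCS was 2.11 (adjusted p = 0.019) without S1-32 mouse 20. CRP, a pattern-binding pentraxin, measured 1162 to 3269 CPM (median 2208) in Control-32 and 2533 to 7950 CPM (median 3909) in S1-32. Its ranges overlapped, with a log2 fold change of 0.94 ± 0.34 (SE; adjusted p = 0.0343). CRP lost its call without S1-32 mouse 20, 21 or 23 (0.65 with adjusted p = 0.14, 0.89 with adjusted p = 0.0526 and 0.88 with adjusted p = 0.0539) and without Control-32 mouse 75, 76 or 78 (0.79 with adjusted p = 0.0954, 0.86 with adjusted p = 0.0683 and 0.81 with adjusted p = 0.0825). The call was also lost with upper-quartile factors (0.73 with adjusted p = 0.0617) and with all deposited libraries (0.89 with adjusted p = 0.264). Without Control-10 mouse 68, Control-32 mouse 75 and Direct-78 mouse 66 together CRP was 0.74 (adjusted p = 0.0788).

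CEBPB, which encodes an inducible activator of acute phase genes, went the other way. It measured 5042 to 20169 CPM with a median of 13280 in the 6 Control-32 mice and 2364 to 5685 CPM with a median of 3023 in the 6 S1-32 mice. The lowest control, mouse 74 (5042 CPM), lay inside the treated range, 5 of 6 S1-32 mice were below every control, and CEBPB fell by 1.85 ± 0.48 on the log2 scale (SE; adjusted p = 0.00423). In both groups the mouse highest in CEBPB had the lowest squared correlation with the mean profile. These were Control-32 mouse 75 (0.628) and S1-32 mouse 19 (0.904). Without Control-10 mouse 68, Control-32 mouse 75 and Direct-78 mouse 66 together CEBPB was -1.76 (adjusted p = 0.00965). The part of library quality in this fall was not tested. SOCS3, which blocks signalling from the interleukin 6 receptor, measured 17.3 to 87.4 CPM (median 35.7) in Control-32 and 12.2 to 64.7 CPM (median 27.2) in S1-32, with a log2 fold change of -0.41 ± 0.62 (SE; adjusted p = 0.632). STEAP4, a metalloreductase that inflammation induces, measured 0 to 20.4 CPM (median 11.3) in Control-32 and 14.6 to 104 CPM (median 17.3) in S1-32, with a log2 fold change of 1.60 ± 0.65 (SE; adjusted p = 0.0538). A count of 0 for STEAP4 in Control-32 mouse 73 allows up to 4.42 CPM. ORM3, an orosomucoid, measured 0 to 27.8 CPM (median 5.96) in Control-32 and 0.624 to 26.6 CPM (median 20.3) in S1-32, with a log2 fold change of 0.65 ± 0.85 (SE; adjusted p = 0.575). The median log2 fold change was 1.82 over the 10 genes and 0.05 over all 2205 genes, and with upper-quartile factors the median of all genes was -0.24 and 27.2% in place of 40.8% of the called genes were higher. With the log2 total count as a covariate CEBPB was -1.06 (adjusted p = 0.217), APCS 1.65 (adjusted p = 0.263) and CRP 0.59 (adjusted p = 0.441), none of them called by edgeR. SAA1, SAA2, LCN2 and HP kept their calls, at smaller values: 5.72 (adjusted p = 0.0246), 6.70 (adjusted p = 0.032), 6.54 (adjusted p = 0.0246) and 1.52 (adjusted p = 0.0475).

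Other genes of the pathway were read from fixed lists. Beside the counts of these lists stand 11.9% of all genes called higher and 17.2% lower in this comparison. Of 15 other positive acute phase proteins, 8 rose and 0 fell: SERPINA3N, an inhibitor of serine proteases, by 4.06 (adjusted p = 0.00185), SERPINA10, an inhibitor of coagulation factors, by 3.36 (adjusted p = 0.00455), and LRG1 by 2.99 (adjusted p = 0.000508) on the log2 scale. SERPINA10 was 4.62 (adjusted p = 0.000327) without Control-32 mouse 74, and LRG1 was 3.82 (adjusted p = 7.07e-05) without Control-32 mouse 77. Of 4 genes on the C/EBP list besides CEBPB, CEBPA, the factor of the differentiated hepatocyte, rose by 1.02 (adjusted p = 0.0125), while DDIT3 and CEBPZ fell by 1.36 and 0.67. Each of these 2 lost its call in 6 of 12 fits with 1 library left out, with values of -1.47 to -1.30 for DDIT3 and -0.84 to -0.63 for CEBPZ. Of 11 genes of IL6 and STAT3 signalling 4 rose and 1 fell: STAT5B rose by 1.41 (adjusted p = 0.0041) and STAT3 by 1.91 (adjusted p = 0.0215), and SOCS1 fell by 2.64 (adjusted p = 0.023). STAT3 was 2.86 (adjusted p = 0.00119) without Control-32 mouse 74 and did not pass without mouse 75, 76 or 78 (1.82 with adjusted p = 0.0521, 1.71 with adjusted p = 0.0539 and 1.65 with adjusted p = 0.0602). SOCS1 was -3.37 (adjusted p = 0.0125) without S1-32 mouse 23 and -1.99 (adjusted p = 0.105) without Control-32 mouse 75. Of 21 genes of IL1, TNF and NF-kB signalling 2 rose and 5 fell. RIPK1, a kinase at the TNF receptor, rose by 1.01 (adjusted p = 0.0079), and NFKB2 and NFKBIA, an NF-kB subunit and the inhibitor that holds NF-kB in the cytoplasm, fell by 1.64 (adjusted p = 0.0125) and by 1.28 (adjusted p = 0.00379). TSC22D3, a glucocorticoid-induced gene, fell by 1.72 (adjusted p = 0.00574), 1 of 3 genes of the glucocorticoid arm. Of 8 negative acute phase genes edgeR called 0. CEBPA, STAT5B, RIPK1, NFKB2, NFKBIA, TSC22D3, SERPINA3N, SERPINA10 and LRG1 passed with any 1 of the 12 libraries left out, and of these only LRG1 passed with the depth covariate.

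Cell type markers moved in the same comparison, in which 11.9% of all genes were called higher and 17.2% lower. Of 9 macrophage markers 3 rose and 1 fell, and their sum, of which LYZ2 is the most abundant gene, was 489 to 1200 CPM (median 746) in Control-32 and 1307 to 1701 CPM (median 1510) in S1-32, without overlap. CD68, a lysosomal protein of macrophages, was at 0 in 3 of 6 controls and rose by 2.40 (adjusted p = 0.00584) on the log2 scale, and C1QC, a complement subunit, rose by 1.45 (adjusted p = 0.0109). Of 5 neutrophil markers 1 rose, and their sum, again led by LYZ2, was 186 to 664 CPM (median 366) in Control-32 and 449 to 933 CPM (median 597) in S1-32. The 11 hepatocyte markers came to 50002 to 115661 CPM (median 80432) in Control-32 and 72866 to 121732 CPM (median 83457) in S1-32, with 2 of 11 higher. Of the other lists, 1 of 5 cholangiocyte markers fell, 1 of 5 endothelial and 1 of 7 exocrine pancreas markers rose, and edgeR called none of 4 lymphocyte, 8 stellate cell and fibroblast or 3 erythroid markers. No marker of the macrophage, neutrophil or hepatocyte lists was at 0 throughout S1-32 or Control-32. The part of these cells in the change of the acute phase genes was not tested.

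**Figure D3:**
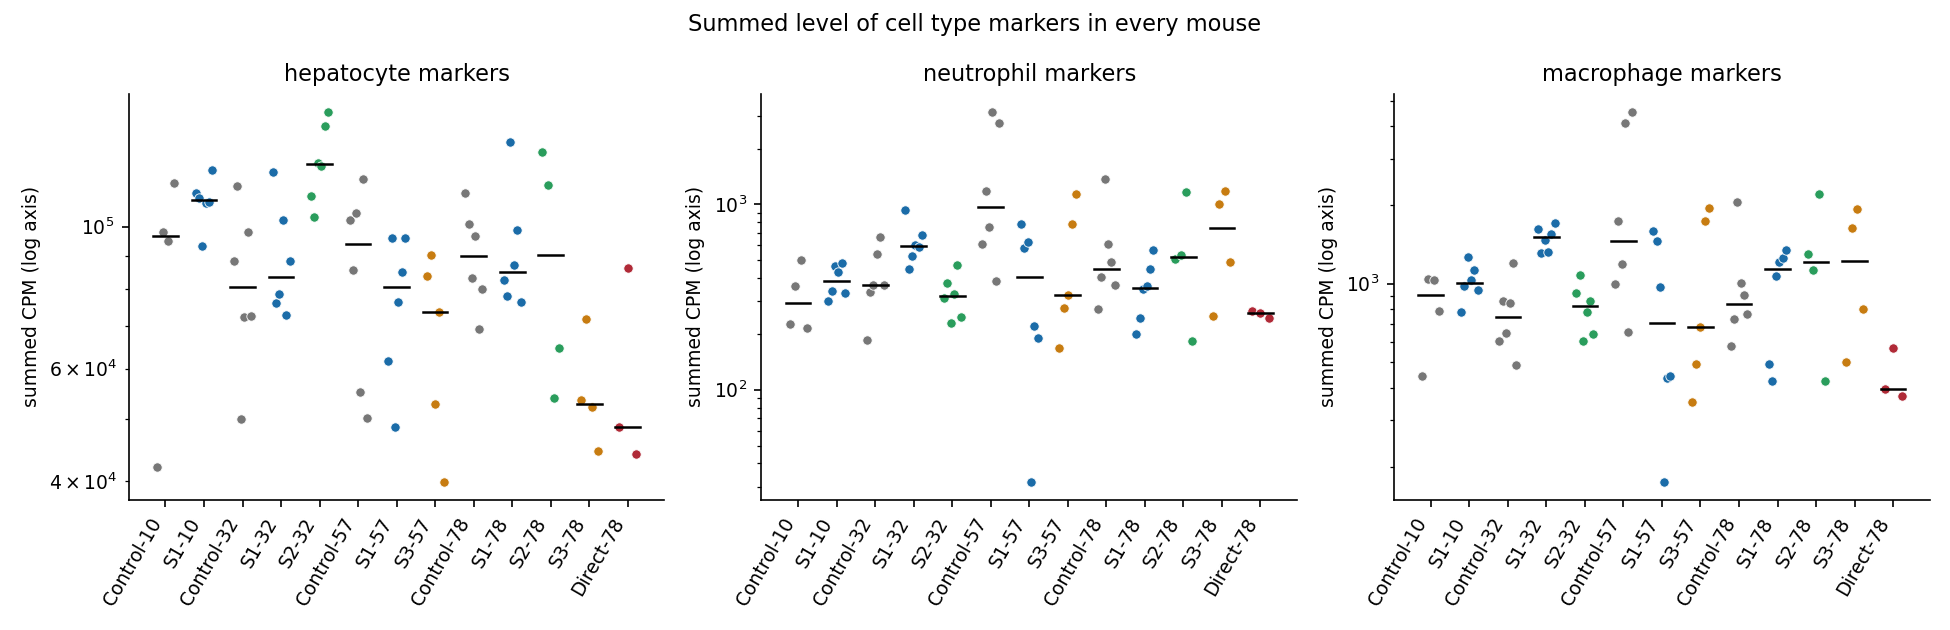
Summed CPM of the hepatocyte, neutrophil and macrophage marker lists in each mouse, with the 13 groups on the horizontal axis and CPM on the vertical axis; points are mice. The macrophage sum lay at 1307 to 1701 CPM in S1-32 and at 489 to 1200 CPM in Control-32.

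Mice still drinking DCA at week 32 were compared with the same Control-32 mice, which the comparisons at that week share. ORM3 fell, 1 of 10 members beside 7.21% of all genes called lower, and edgeR called 0 members higher beside 3.45%. In total 2 members had an unadjusted p under 0.05 and 2 were called by DESeq2. ORM3 was at 0 in 5 of 6 S2-32 mice, where 3 counts would correspond to 0.879, 1, 1.07, 1.97 and 1.7 CPM, and at 0.778 CPM in mouse 38. In Control-32 it ran from 0 to 27.8 CPM with a median of 5.96, so the ranges overlapped at the low end, with 2 controls at 0 (floors of 4.42 and 2.81 CPM). Pooled over mice, ORM3 had 2 counts in S2-32 and 110 in Control-32, a 95.3-fold lower level per TMM-scaled total (95% counting interval 25.8 to 797), with an adjusted p of 0.0032. The call was kept without any 1 library, and without mouse 38 every S2-32 library is at 0. None of the 6 members that rose in S1-32 passed the test here. SAA1 measured 148 to 1830 CPM (median 659) in S2-32, LCN2 4.34 to 21.4 CPM (median 12.7) in S2-32 and HP 747 to 1496 CPM (median 1236) in S2-32, all inside the Control-32 range. APCS measured 87.3 to 742 CPM (median 289) in S2-32 and CRP 1852 to 4112 CPM (median 3112) in S2-32, and for each of them 2 of 6 mice were above every control, with log2 fold changes of 0.59 ± 0.64 (SE; adjusted p = 0.551) and 0.47 ± 0.34 (SE; adjusted p = 0.348). CEBPB measured 3857 to 6983 CPM (median 5066) in S2-32, with a log2 fold change of -1.28 ± 0.47 (SE; adjusted p = 0.0666). Members had a median log2 fold change of -0.64 over the 10 genes and 0.05 over all 2205 genes. SAA1 and LCN2 were each at -0.64. Control-32 mouse 77 held 6935 CPM of SAA1 and 84.6 of LCN2, against at most 327 and 13.9 in the other controls. The S2-32 medians of SAA1 and LCN2 lay above those of Control-32 (242 and 7.1 CPM). Those of SAA2 and HP lay below (108 against 175 and 1236 against 1247 CPM). With upper-quartile factors the median of all genes was -0.17.

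Of the 15 other positive acute phase proteins 3 fell in S2-32, among them C9, the last component of the complement pore, by 2.46 (adjusted p = 0.0115), and VTN, vitronectin, by 1.22 (adjusted p = 0.023), a call lost without S2-32 mouse 42 at -1.15 (adjusted p = 0.06), Control-32 mouse 76 at -1.13 (adjusted p = 0.0576) or Control-32 mouse 78 at -1.20 (adjusted p = 0.0506). C9 was -3.28 (adjusted p = 0.00415) without S2-32 mouse 38. The remaining gene, MT2, a metallothionein, was at 0 in all 6 S2-32 mice and at 0 to 11.5 CPM in Control-32, where 3 of 6 mice were also at 0. Of the 21 genes of IL1, TNF and NF-kB signalling 1 rose and 3 fell, with TRAF6, an adaptor of the interleukin 1 receptor, falling by 1.75 (adjusted p = 0.00448). Beside the counts of these lists stand 3.45% of all genes called higher and 7.21% lower. The macrophage sum was 603 to 1078 CPM (median 821) in S2-32, overlapping Control-32, and 1 of 9 macrophage markers rose. This was CD68, at 20.4 to 32.2 CPM (median 24.4) in S2-32 and 0 to 12.9 CPM (median 5.05) in Control-32, by 2.06 (adjusted p = 0.0301). CD68 lost its call without S2-32 mouse 40 at 2.00 (adjusted p = 0.0506) or 42 at 2.04 (adjusted p = 0.0504), or without Control-32 mouse 73 at 1.81 (adjusted p = 0.0557), 76 at 1.78 (adjusted p = 0.0791) or 78 at 1.72 (adjusted p = 0.0948). The sum of 8 stellate cell and fibroblast markers was 395 to 1022 CPM (median 599) in S2-32 and 91.7 to 303 CPM (median 190) in Control-32, without overlap, with COL1A1 and COL3A1 higher by 2.72 (adjusted p = 0.00335) and 1.95 (adjusted p = 0.0212), the latter 1.65 (adjusted p = 0.0751) without Control-32 mouse 78. KRT8, a keratin on the list of cholangiocyte markers, fell by 1.90 (adjusted p = 0.0145) and was -1.03 (adjusted p = 0.194) without Control-32 mouse 76. The hepatocyte sum was 103646 to 151095 CPM (median 125128) in S2-32 and 50002 to 115661 CPM (median 80432) in Control-32, overlapping, with 0 of 11 called by edgeR.

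Both groups at week 32 had started DCA at the same age, and the direct comparison of S2-32 with S1-32 asks whether stopping made a difference. SAA1, SAA2, LCN2, HP and ORM3 were lower in the mice still on DCA, 5 of 10 members beside 1.41% of all genes, while edgeR called 0 members higher beside 2.13%. SAA2 measured 39.4 to 560 CPM with a median of 108 in the 6 S2-32 mice, and all 6 lay below the lowest S1-32 mouse at 620 CPM. The ranges of LCN2 (21.4 CPM at most in S2-32 and 83.9 at least in S1-32) and of HP (1496 and 1590 CPM) did not overlap either. For SAA1 the highest S2-32 mouse (1830 CPM) was just above S1-32 mouse 19 (1729 CPM). The log2 fold change was -7.19 ± 1.57 (SE; adjusted p = 0.00421) for SAA1, -8.90 ± 1.91 (SE; adjusted p = 0.00364) for SAA2, -8.47 ± 1.63 (SE; adjusted p = 0.00111) for LCN2 and -2.12 ± 0.42 (SE; adjusted p = 0.00125) for HP. ORM3 had 2 pooled counts in S2-32 and 267 in S1-32, 125-fold lower per TMM-scaled total (95% counting interval 34.3 to 1039), with an adjusted p of 0.00111. APCS at -2.03 (adjusted p = 0.0731), STEAP4 at -1.41 (adjusted p = 0.229) and CEBPB at 0.57 (adjusted p = 0.56) did not pass. All 5 calls were kept under every alternative and without any 1 library. LCN2 was -7.82 (adjusted p = 0.00508) without S1-32 mouse 20, SAA2 was -8.26 (adjusted p = 0.0089) without S1-32 mouse 23 and -9.57 (adjusted p = 0.00691) without S2-32 mouse 40, and without S2-32 mouse 38 ORM3 is at 0 in every S2-32 library. The members'  median log2 fold change was -2.08 over the 10 genes and 0.01 over all 2205 genes. Of the 15 other positive acute phase proteins 3 fell, LRG1 by 3.17 (adjusted p = 0.00125), and of 11 genes of IL6 and STAT3 signalling 2 fell, STAT5B by 1.46 (adjusted p = 0.0165) and JAK1 by 1.03 (adjusted p = 0.0093). Cell type markers differed as well. The macrophage sum was 603 to 1078 CPM (median 821) in S2-32 and 1307 to 1701 CPM (median 1510) in S1-32, without overlap, though edgeR called 0 of the 9 markers. FABP1, a fatty acid carrier of hepatocytes, and COL1A1 were higher in S2-32 by 1.37 (adjusted p = 0.0482) and 2.03 (adjusted p = 0.0338). With 1 of 12 libraries left out FABP1 ran from 0.95 to 1.68 and lost its call in 8 fits, and COL1A1 ran from 1.77 to 2.22 and lost it in 6.

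**Figure D4:**
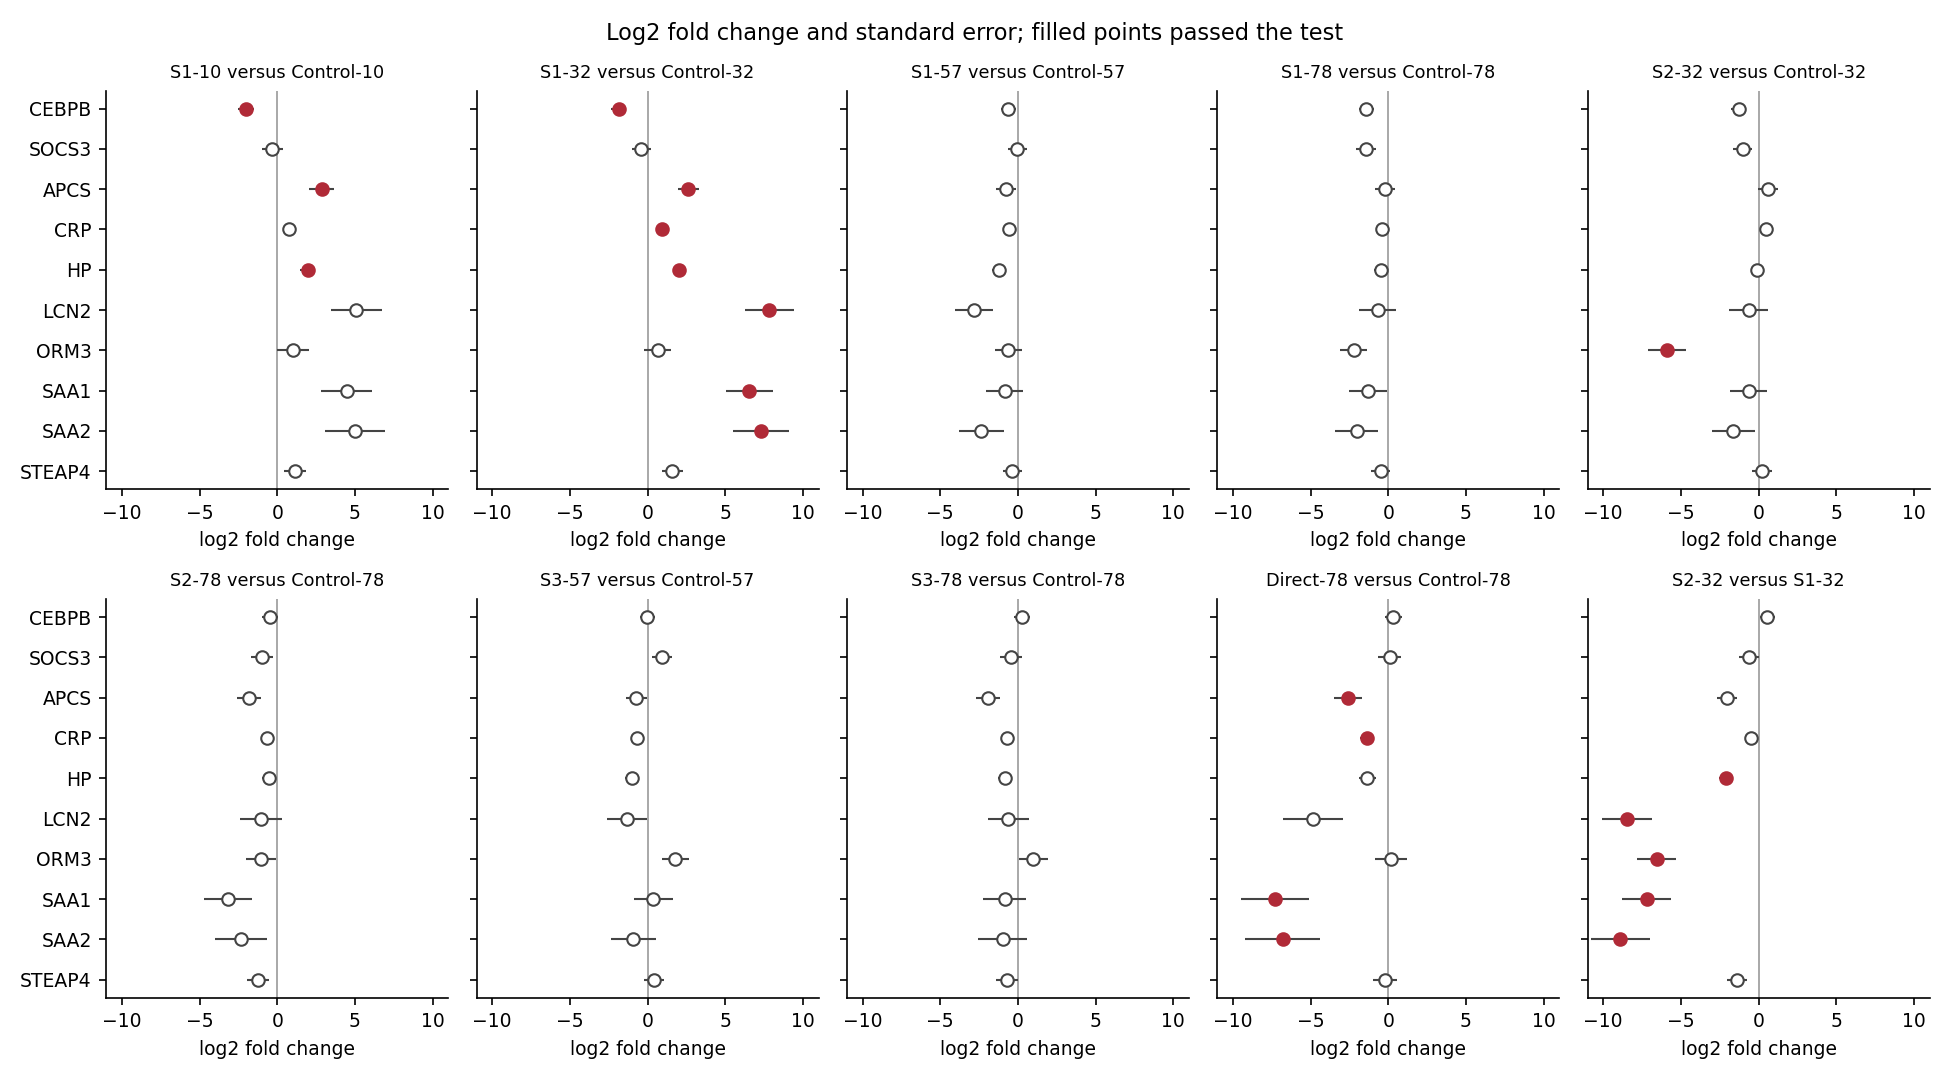
Log2 fold change of each of the 10 genes with its standard error, for the 9 DCA groups against age-matched controls and for S2-32 against S1-32, with the comparison and the gene on the axes; filled points passed the test. SAA1 is at 6.55 in S1-32 against Control-32, at -7.19 in S2-32 against S1-32 and at -7.27 in Direct-78 against Control-78.

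Later in life the S1 livers were compared with controls of 57 and 78 weeks to ask how long an effect of early exposure lasts. At 57 weeks edgeR called 0 of 10 members, beside 0.363% of all genes higher and 1.22% lower, with 2 at an unadjusted p under 0.05 and 1 called by DESeq2. SAA1 measured 160 to 10132 CPM (median 1303) in S1-57 and 610 to 11410 CPM (median 4096) in Control-57, and LCN2 5.23 to 238 CPM (median 76.1) in S1-57 and 27.5 to 3611 CPM (median 82.9) in Control-57. CEBPB measured 3430 to 22331 CPM (median 8843) in S1-57 and 7578 to 29502 CPM (median 12405) in Control-57. The ranges overlapped for all 3 genes, and the mice with the highest LCN2 and SAA1 were controls (3611 CPM of LCN2 in mouse 84 and 11410 of SAA1 in mouse 81). The log2 fold changes of the 10 genes ran from -2.83 to -0.05, with a median of -0.68 over the 10 genes and 0.07 over all 2205 genes. With RLE and upper-quartile factors the median of all genes was 0.18 and 0.19, and 39.3% and 46.4% of called genes were higher in place of 22.9%. NFKBIA, the NF-kB inhibitor, fell by 1.69 (adjusted p = 0.00273), 1 of 2 calls among 21 genes of that pathway, and LYZ2, a lysozyme of macrophages and neutrophils, fell by 1.93 (adjusted p = 0.0288), a call lost without S1-57 mouse 28, 29 or 30 (-1.67, -1.80 and -1.80) or Control-57 mouse 82 or 84 (-1.52 and -1.72).

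At 78 weeks edgeR called 0 of 10 members in S1-78 (beside 0.998% of all genes higher and 0.816% lower), with 3 at an unadjusted p under 0.05 and 0 called by DESeq2. It also called 0 in S2-78, 46 weeks after 32 weeks of DCA (beside 0.816% higher and 0.816% lower), with 2 at an unadjusted p under 0.05 and 0 called by DESeq2. CEBPB measured 2456 to 16038 CPM (median 4380) in S1-78, 3895, 3229, 8576 and 33083 CPM in S2-78 and 6006 to 22703 CPM (median 19508) in Control-78. In S1-78, 4 of 6 mice were below every control, mouse 32 (16038 CPM) was inside the control range, and the log2 fold change was -1.42 ± 0.47 (SE; adjusted p = 0.1). SAA1 measured 440 to 36788 CPM (median 1460) in S1-78, 716, 413, 2176 and 4482 CPM in S2-78 and 55.9 to 49404 CPM (median 9522) in Control-78. S1-78 mouse 34 stood far above its group in SAA1 (36788 CPM) and SAA2 (17463 CPM), and Control-78 mouse 86 stood below every mouse of both groups, at 55.9 CPM of SAA1. In S1-78 the median log2 fold change was -0.99 over the 10 genes and 0.07 over all 2205 genes, and in S2-78 it was -1.05 over the 10 genes and 0.06 over all 2205 genes. In S2-78 the median of all genes was 0.27 with RLE and 0.24 with upper-quartile factors, and 72.1% and 72.5% of called genes were higher in place of 50%.

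Mice given DCA for 57 weeks were sampled at its end and 21 weeks later. In S3-57 edgeR called 0 of 10 members (beside 2.86% of all genes higher and 3.54% lower), with 2 at an unadjusted p under 0.05 and 0 called by DESeq2. In S3-78 it called 0 (beside 5.85% higher and 7.48% lower), with 1 at an unadjusted p under 0.05 and 1 called by DESeq2. ORM3 measured 72.7, 25.3, 66.6, 58.7 and 71.9 CPM in the 5 S3-57 mice against 6.41 to 44.5 CPM (median 10.3) in Control-57. In S3-57, 4 of 5 mice were above every control, with a log2 fold change of 1.78 ± 0.88 (SE; adjusted p = 0.253), while in S3-78 ORM3 measured 121, 67.5, 15.4 and 99 CPM against 7.01 to 64.8 CPM (median 43.1) in Control-78 (1.00 with adjusted p = 0.481). SAA1 measured 24895, 2589, 1219, 1627 and 2630 CPM in the 5 S3-57 mice and 1009, 420, 991 and 36110 CPM in the 4 S3-78 mice. In each group 1 mouse was far above the others, mouse 49 in S3-57 and mouse 60 in S3-78. CEBPB measured 13204, 13171, 30972, 6856 and 10868 CPM in the 5 S3-57 mice and 32211, 16700, 14576 and 17634 CPM in the 4 S3-78 mice, and the ranges overlapped those of the controls, with the highest mouse of each group above every control of its age and S3-57 mouse 53 below. The median log2 fold change was -0.33 over the 10 genes and 0.01 over all 2205 genes in S3-57 and -0.68 over the 10 genes and 0.07 over all 2205 genes in S3-78. RLE and upper-quartile factors gave 57.3% and 54.1% of called genes higher in place of 44.7% in S3-57. In S3-78 they gave 55.7% and 61.7% in place of 43.9%, with the median of all genes at 0.27 and 0.34. Between S3-57 and S1-57 edgeR called 0 of 10 members and 0% of all genes, with 1 member at an unadjusted p under 0.05 and 0 called by DESeq2, and the median log2 fold change was 0.88 over the 10 genes and -0.04 over all 2205 genes. C9 fell by 2.69 in S3-57 (adjusted p = 0.0129), a call lost without S3-57 mouse 51 at -2.45 (adjusted p = 0.0617), and fell by 3.12 in S3-78 (adjusted p = 0.00611). CEBPZ, a member of the C/EBP list that acts as a CCAAT-binding factor, fell by 1.13 (adjusted p = 0.00747) and by 1.57 (adjusted p = 0.000433). These comparisons at 57 and 78 weeks share their controls with the other comparisons of that age.

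After 78 weeks of continuous DCA 4 of the acute phase genes were lower than in controls. SAA1, SAA2, APCS and CRP fell in Direct-78 against Control-78, 4 of 10 members beside 18.7% of all genes called lower, and edgeR called 0 members higher beside 5.71%, with 6 members at an unadjusted p under 0.05 and 5 called by DESeq2. SAA1 measured 123, 117 and 98.6 CPM in the 3 Direct-78 mice and 55.9 to 49404 CPM with a median of 9522 in the 6 Control-78 mice. SAA2 measured 124, 126 and 101 CPM in the 3 Direct-78 mice and 52.6 to 51475 CPM with a median of 4399 in the 6 Control-78 mice. The 3 kept treated mice lay close together and below 5 of 6 controls, while Control-78 mouse 86 was lower still (55.9 CPM of SAA1 and 52.6 of SAA2). Direct-78 libraries that the authors left out had 1024, 138 and 123 unscaled CPM of SAA1 and 1886, 158 and 220 of SAA2 in mice 61, 62 and 63, so mouse 61 lay well above the kept mice. CRP measured 1240, 1174 and 1293 CPM in the 3 Direct-78 mice and 1924 to 4516 CPM with a median of 3271 in the 6 Control-78 mice, and these ranges did not overlap. APCS measured 66.2, 228 and 59.5 CPM in the 3 Direct-78 mice and 167 to 1138 CPM with a median of 747 in the 6 Control-78 mice, with Direct-78 mouse 65 inside the control range. SAA1 fell by 7.27 (SE 2.19, adjusted p = 0.0139), SAA2 by 6.79 (SE 2.42, adjusted p = 0.0339), APCS by 2.61 (SE 0.90, adjusted p = 0.0306) and CRP by 1.40 (SE 0.45, adjusted p = 0.0193) on the log2 scale.

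LCN2 measured 9.88, 47.2 and 0 CPM in the 3 Direct-78 mice and 13.3 to 1405 CPM with a median of 334 in the 6 Control-78 mice, with a log2 fold change of -4.84 ± 1.92 (SE; adjusted p = 0.0551), and the count of 0 in mouse 66 allows up to 4.05 CPM. HP was at -1.35 ± 0.53 (SE; adjusted p = 0.0505). CEBPB measured 26317, 20609 and 16910 CPM in the 3 Direct-78 mice against 6006 to 22703 CPM (median 19508) in Control-78, overlapping, with a log2 fold change of 0.33 ± 0.56 (SE; adjusted p = 0.679). SOCS3, ORM3 and STEAP4 were at 0.09, 0.16 and -0.22, and SOCS3 and STEAP4 were at 0 in mouse 65, where 3 counts correspond to 4.05 CPM. The median log2 fold change was -1.38 over the 10 genes and -0.33 over all 2205 genes. With RLE and upper-quartile factors the median of all genes was 0.07 and 0.12, and 46.3% and 49.7% of called genes were higher in place of 23.4%. Every call here was lost with some setting or library. With the depth covariate SAA1 was -2.28 (adjusted p = 0.679), SAA2 -3.73 (adjusted p = 0.586), APCS -0.26 (adjusted p = 0.959) and CRP -0.59 (adjusted p = 0.688).

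Leaving out 1 library ended calls as well. Without Direct-78 mouse 64, SAA1 was -7.34 (adjusted p = 0.0656), SAA2 -6.83 (adjusted p = 0.114), APCS -2.32 (adjusted p = 0.131) and CRP -1.41 (adjusted p = 0.071). Without mouse 66 they were -7.15 (adjusted p = 0.0648), -6.66 (adjusted p = 0.113), -2.25 (adjusted p = 0.132) and -1.40 (adjusted p = 0.0609). Without mouse 65, APCS was -3.30 (adjusted p = 0.022), SAA2 -6.65 (adjusted p = 0.0778) and CRP -1.17 (adjusted p = 0.0658). Without Control-78 mouse 89, SAA1 was -6.57 (adjusted p = 0.0242), SAA2 -5.44 (adjusted p = 0.0711) and APCS -2.38 (adjusted p = 0.0521), and without Control-78 mouse 90 APCS was -2.43 (adjusted p = 0.0535). CRP was -0.99 (adjusted p = 0.065) with RLE and -0.90 (adjusted p = 0.083) with upper-quartile factors, and APCS was -2.17 (adjusted p = 0.0552) with the latter.

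Of 15 other positive acute phase proteins 9 fell and 0 rose in Direct-78, SERPINA10 by 4.81 (adjusted p = 0.00687) and FGB, the beta chain of fibrinogen, by 3.64 (adjusted p = 0.00749). With the depth covariate SERPINA10 turned to 2.37 (adjusted p = 0.395). Without Direct-78 mouse 64 FGB was -3.42 (adjusted p = 0.0522). Of 11 hepatocyte markers 3 fell, FGB and HNF4A, which the acute phase lists also hold, and ASS1, and the sum of the 11, led by FABP1, was 44201 to 86139 CPM (median 48555) in Direct-78 and 69169 to 112780 CPM (median 89993) in Control-78, overlapping. Of 8 negative acute phase genes 2 fell, and HNF4A, a factor of hepatocyte identity, fell by 2.19 (adjusted p = 0.0137), a call lost without Direct-78 mouse 64 at -1.97 (adjusted p = 0.0804) or 66 at -1.84 (adjusted p = 0.0888). The macrophage sum, led by LYZ2, was 372 to 568 CPM (median 395) in Direct-78 and 579 to 2053 CPM (median 834) in Control-78, with 2 of 9 lower and CCR2 at 0 in all 3 treated mice. The neutrophil sum, also led by LYZ2, was 243 to 266 CPM (median 259) in Direct-78 and 273 to 1371 CPM (median 446) in Control-78, with 2 of 5 lower and IL1B and FPR1 at 0 in all 3. Zeros in Direct-78 have floors of 2.96 to 4.05 CPM, and IL1B was at 1.67 to 13.6 CPM (median 3.51) in Control-78. Beside these counts stand 18.7% of all genes called lower, and the part of cell makeup in the fall of the members was not tested.

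Direct-78 was also set against S3-78, the mice that had stopped DCA 21 weeks before. Here edgeR called 0 of 10 members beside 5.03% of all genes, with 3 at an unadjusted p under 0.05 and 2 called by DESeq2. SAA1 had a log2 fold change of -6.41 ± 2.13 (SE; adjusted p = 0.0583), and the 4 S3-78 mice were all above the 3 Direct-78 mice. It was at 36110 CPM in S3-78 mouse 60 and at 420 to 1009 CPM in the other S3-78 mice. In Direct-78 it was at 98.6 to 123 CPM, so the size of the fold change leans on mouse 60. LCN2 had -4.23 ± 1.90 (SE; adjusted p = 0.178), and CRP -0.72 ± 0.46 (SE; adjusted p = 0.381). The median log2 fold change was -0.69 over the 10 genes and -0.27 over all 2205 genes. With RLE and upper-quartile factors the median of all genes was -0.08 with both, and 18.9% and 17.5% of called genes were higher in place of 7.21%. Of 15 other positive acute phase proteins 2 fell, LRG1 by 3.34 (adjusted p = 0.0172) and C3, a complement protein, by 1.84 (adjusted p = 0.0409). LRG1 lost its call without S3-78 mouse 55 at -2.85 (adjusted p = 0.0561) or Direct-78 mouse 64 at -3.22 (adjusted p = 0.0665) or 66 at -2.90 (adjusted p = 0.0823), and C3 lost it in 5 of 7 fits with 1 library left out, with values of -2.17 to -1.51. CD68 and CCR2 of the 9 macrophage markers and FPR1 of the 5 neutrophil markers were called lower (adjusted p = 0.0209, 0.0148 and 0.0233), with CCR2 and FPR1 at 0 in all 3 Direct-78 mice and CD68 at 0 in 2 of 3 (floors of 2.96 to 4.05 CPM). In S3-78 these genes measured 18.4 to 29.9 CPM for CD68, 0 to 104 CPM for CCR2 (floors of 1.2 to 2.28 CPM) and 9.19 to 27.9 CPM for FPR1, and each of the 3 calls was lost without Direct-78 mouse 64 and also with only the groups compared in the model.

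Control livers of different ages show what the members do without DCA. HP was the only member called with age: it measured 484, 935, 885 and 680 CPM in the 4 Control-10 mice, 606 to 2115 CPM with a median of 1247 in the 6 Control-32 mice, 1492 to 4311 CPM with a median of 2545 in the 6 Control-57 mice and 1057 to 4006 CPM with a median of 2320 in the 6 Control-78 mice. All 6 mice of Control-57 and all 6 of Control-78 were above the highest 10-week mouse, and Control-32 overlapped it. Between Control-57 and Control-10 HP rose by 1.90 ± 0.48 (SE; adjusted p = 0.0168), 1 of 10 members beside 2.4% of all genes called higher, and edgeR called 0 members lower beside 1.04%. In that comparison 3 members had an unadjusted p under 0.05 and DESeq2 called 2. Among calls on other lists, LYZ2 of the macrophage and neutrophil lists rose by 2.26 (adjusted p = 0.0179) and CYP3A11 fell by 2.24 (adjusted p = 0.00567). The neutrophil sum was 384 to 3151 CPM in Control-57 and 216 to 500 CPM in Control-10, overlapping. Between Control-78 and Control-10 HP rose by 1.66 ± 0.48 (SE; adjusted p = 0.0322), 1 of 10 members beside 2.36%, and edgeR called 0 lower beside 1.59%, with 6 members at an unadjusted p under 0.05 and 5 called by DESeq2. Between Control-32 and Control-10 edgeR called 0 of 10 members beside 1.59% of all genes, with 0 at an unadjusted p under 0.05 and 0 called by DESeq2. The call at 57 weeks was lost without Control-10 mouse 72 (1.86 with adjusted p = 0.0556) and with only the groups compared in the model (1.92 with adjusted p = 0.0506). The call at 78 weeks was lost without Control-10 mouse 68 (1.5 with adjusted p = 0.113), 71 (1.76 with adjusted p = 0.0614) or 72 (1.62 with adjusted p = 0.0915), or without Control-78 mouse 89 (1.44 with adjusted p = 0.0867) or 90 (1.62 with adjusted p = 0.0514). It was also lost with the depth covariate (1.07 with adjusted p = 0.16) and with upper-quartile factors (1.49 with adjusted p = 0.0539). With only the groups compared in the model HP was 1.65 (adjusted p = 0.0529). Without Control-10 mouse 68, Control-32 mouse 75 and Direct-78 mouse 66 together it was 1.55 (adjusted p = 0.098).

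SAA1 and LCN2 had wide ranges in the older controls. SAA1 ran 610 to 11410 CPM (median 4096) in Control-57 and 55.9 to 49404 CPM (median 9522) in Control-78, with log2 fold changes against Control-10 of 1.85 (adjusted p = 0.555) and 3.64 (adjusted p = 0.194). LCN2 ran 27.5 to 3611 CPM (median 82.9) in Control-57 and 13.3 to 1405 CPM (median 334) in Control-78, with 4.34 (adjusted p = 0.13) and 3.94 (adjusted p = 0.154). In Control-78 mouse 89 SAA1 and SAA2 together made up 7.16% of counts (95% interval 7.135 to 7.184). Medians of the log2 fold change were -0.04 over the 10 genes and -0.06 over all 2205 genes at 32 weeks, 1.61 over the 10 genes and -0.04 over all 2205 genes at 57 and 1.94 over the 10 genes and -0.06 over all 2205 genes at 78. With RLE and upper-quartile factors the median of all genes was 0.00 and 0.06 at 32 weeks, -0.15 and -0.15 at 57, and -0.20 and -0.23 at 78. The share of called genes that were higher was then 53.9% and 52.9% in place of 69.7% at 57 weeks and 42.7% and 36.6% in place of 59.8% at 78 weeks. C9 rose by 3.72 (adjusted p = 0.0129) at 32 weeks and VTN by 2.13 (adjusted p = 0.00744), 2 of the 15 other positive acute phase proteins. At 57 weeks 3 of the 15 rose (beside 2.4% of all genes) and at 78 weeks 4 did (beside 2.36%). C9 was then 3.40 (adjusted p = 0.01) and 3.65 (adjusted p = 0.00576), and VTN 2.28 (adjusted p = 0.00218) and 2.42 (adjusted p = 0.000573). The 3 comparisons share the Control-10 mice.

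Whether DCA acts alike after 10 and 32 weeks, and after 10 and 78 weeks, was tested as a difference of effects, called at an adjusted p of at most 0.05 without a fold threshold. Weeks of DCA and age of the mouse rise together in S1-10, S2-32 and Direct-78, so they cannot be told apart here. Between 10 and 78 weeks the effect differed for 7 of 10 members, beside 33.8% of all genes. APCS differed by 5.48 ± 1.22 (SE; adjusted p = 0.000757), HP by 3.32 ± 0.72 (SE; adjusted p = 0.000575), CRP by 2.16 ± 0.59 (SE; adjusted p = 0.0043), LCN2 by 9.94 ± 2.60 (SE; adjusted p = 0.00308), SAA1 by 11.74 ± 2.78 (SE; adjusted p = 0.00138) and SAA2 by 11.80 ± 3.15 (SE; adjusted p = 0.00353) on the log2 scale, all higher at 10 weeks. CEBPB differed the other way, by -2.34 ± 0.75 (SE; adjusted p = 0.0139), and without Control-10 mouse 68 this was -1.66 (adjusted p = 0.105). The median difference was 2.74 over the 10 genes and 0.35 over all 2205 genes. Without S1-10 mouse 15 the differences were 4.33 for APCS, 2.60 for HP, 6.88 for LCN2, 9.14 for SAA1 and 8.46 for SAA2. LCN2 was 11.42 without Direct-78 mouse 65, 9.23 without mouse 66, 11.29 without Control-10 mouse 68 and 9.26 without Control-78 mouse 89, and APCS was 6.18 without Direct-78 mouse 65. SAA1 and SAA2 were 12.36 and 12.42 without Control-10 mouse 69, and 11.01 and 10.42 without Control-78 mouse 89. All of these passed. With the depth covariate edgeR called 0 of the 7 and CEBPB turned to 0.25 (adjusted p = 0.949), and without it DESeq2 called 7. Between 10 and 32 weeks the effect differed for ORM3 alone, 1 of 10 members beside 1.86% of all genes, by a fitted 6.91 that is no bound (adjusted p = 0.0183), and the median difference was 2.17 over the 10 genes and -0.08 over all 2205 genes. This rests on S2-32, where ORM3 was at 0 in 5 of 6 mice. The call was lost with all deposited libraries (adjusted p = 0.101) and with only the groups compared in the model (adjusted p = 0.06), and without Control-10 mouse 68, Control-32 mouse 75 and Direct-78 mouse 66 together (6.94 with adjusted p = 0.0514). It was kept without any 1 library, at 7.65 (adjusted p = 0.0186) without Control-10 mouse 69 and 8.67 (adjusted p = 0.0107) without S2-32 mouse 38. At 10 weeks ORM3 measured 3.99 to 12.7 CPM with a median of 6.76 in the 6 S1-10 mice and 7.08, 8.19, 0 and 0 CPM in the 4 Control-10 mice, where 0 in mice 71 and 72 allows up to 1.72 and 1.29 CPM.

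Among mice of the same group the acute phase genes varied together. Over 68 libraries, with group means taken out of log2 CPM, SAA1 and SAA2 had r = 0.94 and rho = 0.92 and r = 0.93 without the 2 libraries farthest from the median. SAA1 and HP had r = 0.78 and rho = 0.75 (r = 0.75 without 2), SAA1 and APCS r = 0.68 and rho = 0.60 (0.65), SAA1 and LCN2 r = 0.60 and rho = 0.57 (0.53) and SAA1 and CRP r = 0.57 and rho = 0.49 (0.55). For these 5 the two-sided permutation p of r was 1e-05, the smallest that 100000 permutations within groups can give, and the adjusted p over 17 relations was 3.4e-05. The p of rho was also 1e-05 (adjusted p = 4.25e-05) for 4 of them and 0.00011 (adjusted p = 0.000374) for CRP. CEBPB ran against APCS, with r = -0.50 and rho = -0.46 (r = -0.50 without 2; permutation p = 5e-05 and 0.00021, adjusted p = 0.000142 and 0.000595). Control-10 mouse 68, Control-32 mouse 75, S2-32 mouse 41, S1-78 mouse 32, S1-32 mouse 19 and S1-10 mouse 13 were highest in CEBPB and lowest in APCS of their group. Their squared correlations with the mean profile were 0.747, 0.628, 0.8, 0.831, 0.904 and 0.906. S3-78 mouse 55 was highest in both genes. The part of library quality in this relation was not tested. CEBPB and CRP had r = -0.40 and rho = -0.37 (r = -0.39 without 2; permutation p = 0.00771 and 0.00674, adjusted p = 0.0131 and 0.0115). CEBPB and ORM3 ran in the same direction, with r = 0.38 and rho = 0.27 (r = 0.25 without 2; permutation p = 0.0218 and 0.0727, adjusted p = 0.0337 and 0.103), which passes for r and not for rho. CEBPB and SAA1 had r = -0.17 and rho = -0.13 (r = -0.22 without 2; permutation p = 0.19 and 0.341, adjusted p = 0.231 and 0.414), which does not pass. Nor did CEBPB pass with SOCS3, HP, LCN2, SAA2 or STEAP4 in the permutation test (adjusted p of 0.0723 to 0.899 for r and 0.0852 to 0.944 for rho). The values of a pair come from 1 library and share its depth and composition.

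**Figure D5:**
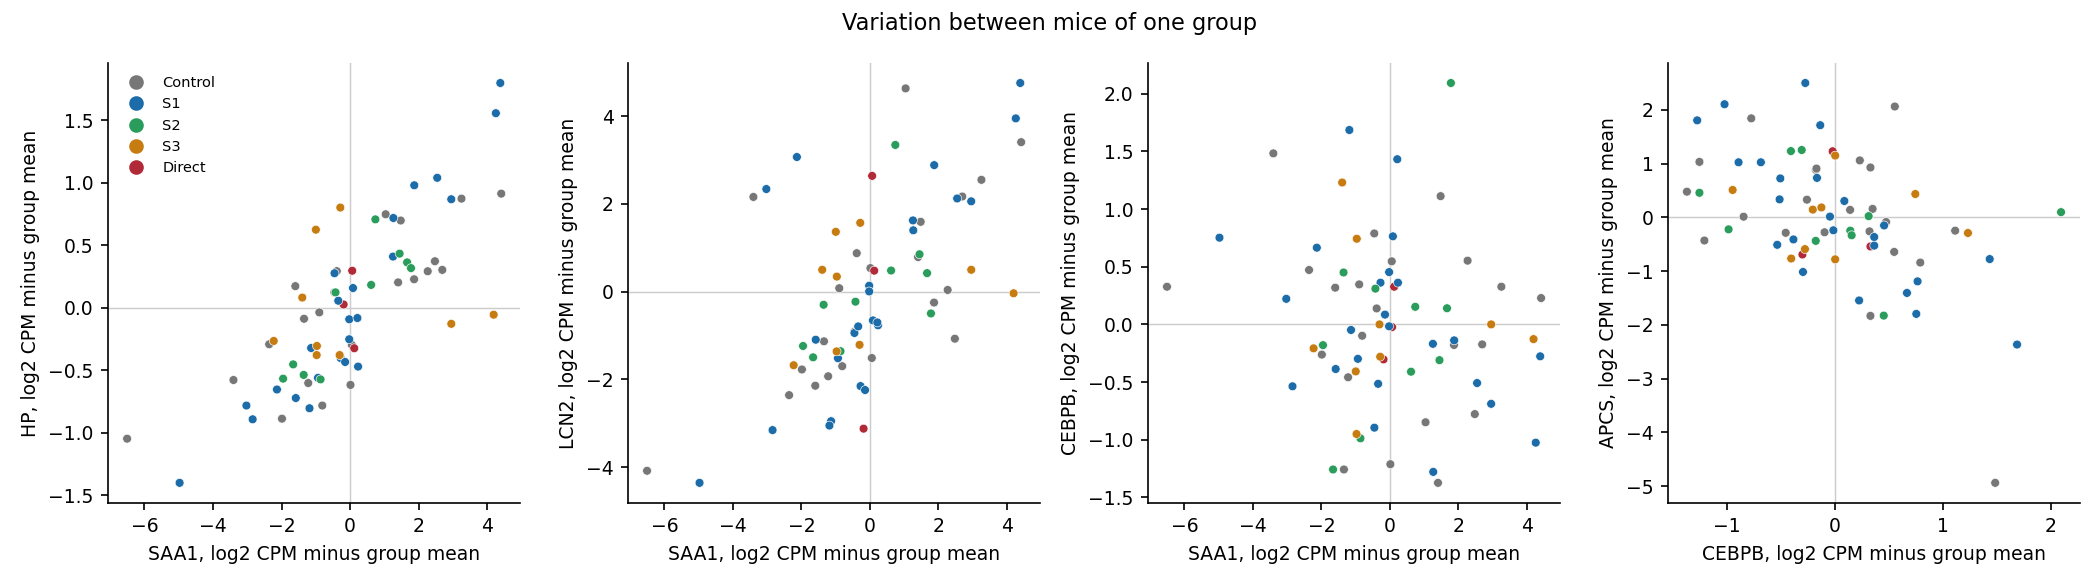
Log2 CPM minus the group mean in 68 mice for 4 pairs of genes, 1 panel per pair, with 1 gene on each axis; points are mice. SAA1 rises with HP (r = 0.78) and LCN2 (r = 0.60), SAA1 against CEBPB is a loose cloud (r = -0.17), and APCS falls as CEBPB rises (r = -0.50).

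The genes whose within-group pattern was most like that of CEBPB were not acute phase genes. By Spearman correlation over the same 68 libraries, among 1756 genes with a mean of at least 10 CPM, they were 2810403A07RIK (rho = 0.81), MAT2A (0.78), the enzyme that makes S-adenosylmethionine, EIF4EBP1 (0.77), a repressor of translation initiation, CRKL (0.76), a signalling adaptor, and SNRPB (0.75), a core protein of the spliceosome. The least like were BST2 (-0.77), GNB1 (-0.76), PSMC1 (-0.73), a proteasome subunit, HSD3B3 (-0.72) and PEBP1 (-0.71). Over all 1756 genes the median was -0.11. These are descriptions of 68 libraries, with no test.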

How the data were processed

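TempO-Seq libraries of 78 mouse livers were deposited, 6 for each of 13 groups, and groups were taken from the sample labels. The authors deposited counts per gene for 2755 genes of the Mouse S1500+ panel, and their processing notes name Bowtie, Partek 10.0.22.0524, DESeq2 and the mm10 build. The authors also deposited a normalized signal, which equals count plus 1 divided by a factor per library (relative spread at most 9.69e-06) for 68 libraries, and the same signal for the 2205 genes (80.0%) that passed their filter. The 10 libraries without normalized values were left out of the tests.

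Counts of the 2205 genes in 68 libraries were fitted in edgeR 4.0.16 (R 4.3.3, limma 3.58.1) with TMM factors, all 13 groups in 1 quasi-likelihood model and no covariate, followed by Benjamini-Hochberg adjustment within each of 17 contrasts. Called means an adjusted p of at most 0.05 and a fold change over 1.5, or an adjusted p of at most 0.05 alone for a difference of effects. CPM were computed from counts and TMM-scaled totals, and log2 CPM with a prior count of 2. A count of 0 is bounded by a floor of 3 counts. The scripts were tested on simulated data. Correlations used 100000 permutations within groups (Python 3.11.15, numpy 2.4.6, scipy 1.17.1, pandas 2.3.3), and figures were drawn with matplotlib 3.10.9.

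Alternatives used all genes of the panel, all deposited libraries, RLE factors, upper-quartile factors, DESeq2 1.42.0, only the groups compared in the model, log2 total count as a covariate, exclusion of libraries with exocrine pancreas signal (over 10 times the median), and each library left out in turn. Exclusion of Control-10 mouse 68, Control-32 mouse 75 and Direct-78 mouse 66 together was chosen after seeing the data. The 10 genes and the 15 gene lists were chosen with earlier results of these data known. Named list genes are up to 3 higher and 3 lower called genes of a list with the largest fold changes, and for likeness to CEBPB the 5 highest and 5 lowest. Where fewer are named, the choice among them was made after their values were seen.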

Additional observations from a re-analysis of the deposited data

Results flagged for a closer look

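Of 120 sets of values, each 1 gene in 1 group, 15 held a mouse set apart from the rest of its group on the log2 scale by Dixon's test, and chance alone marks about 1 in 20 such sets. The distant values were high for APCS in S1-10 mouse 15 (4140 CPM) and Control-57 mouse 81 (710 CPM), and for SAA1 in S1-78 mouse 34 (36788 CPM), S3-57 mouse 49 (24895 CPM) and Control-32 mouse 77 (6935 CPM). They were also high for SAA2 in S1-78 mouse 34 (17463 CPM) and S3-57 mouse 49 (11458 CPM), and for ORM3 in S2-32 mouse 38 (0.778 CPM), whose group is otherwise at 0. Against equal zeros the test marks any count. As 0.778 CPM is under the floor of that library (1.17 CPM), mouse 38 cannot be told apart from its group. They were low for CEBPB in Control-78 mouse 85 (6006 CPM), SOCS3 in S3-78 mouse 59 (23.3 CPM), APCS in Control-10 mouse 68 (1.18 CPM), CRP in the same mouse (491 CPM), ORM3 in S1-32 mouse 19 (0.624 CPM) and S3-57 mouse 50 (25.3 CPM), and STEAP4 in Control-32 mouse 73 (0 CPM, floor 4.42).

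The change in DCA mice against controls differed between times by the edgeR test of the difference itself, with weeks of DCA and age rising together. Between 10 and 32 weeks the log2 difference was 6.91 for ORM3, a fitted value that depends on the prior count because 5 of 6 S2-32 mice are at 0, and that is no bound. Between 10 and 78 weeks it was -2.34 for CEBPB, 5.48 for APCS, 2.16 for CRP, 3.32 for HP, 9.94 for LCN2, 11.74 for SAA1 and 11.80 for SAA2. With the depth covariate none of the calls between 10 and 78 weeks was kept, and CEBPB turned to 0.25. The call of ORM3 was lost with all deposited libraries and with only the groups compared. It was also lost without Control-10 mouse 68, Control-32 mouse 75 and Direct-78 mouse 66 together.

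In libraries of treated mice that the authors left out, 10 values lay above the highest kept control of the same age, here Control-78, on CPM of unscaled totals. CEBPB was at 45695 CPM in S2-78 mouse 46, 30658 in S2-78 mouse 48, 22353 in Direct-78 mouse 61 and 32355 in Direct-78 mouse 63, against at most 16583 in kept Control-78 libraries. STEAP4 was at 54 CPM in S3-78 mouse 58, 123 in Direct-78 mouse 61, 103 in mouse 62 and 71.7 in mouse 63, against at most 43. ORM3 was at 57.9 CPM in Direct-78 mouse 61 and 66.9 in mouse 62, against at most 49.4. Control-10 libraries that were left out also lay above the highest kept Control-10 library, at 69.3 CPM of ORM3 (against 9.73) and 164 of STEAP4 (against 35.7) in mouse 67 and at 3086 CPM of CRP (against 3054) in mouse 70.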

How the results depend on the processing

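Of 30 called member values, 10 passed under all 9 alternatives and with any 1 library left out, and 19 passed with any 1 library left out. Of 270 values under the alternatives 234 were called, 35 were not and 1 changed sign, and the depth covariate ended 14 of the 35. Of 397 values with 1 library left out 365 were called and 32 were not.

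The count of called members, given first as designed in brackets, moved as follows, and the cause was not tested. The 3 libraries are Control-10 mouse 68, Control-32 mouse 75 and Direct-78 mouse 66. In S1-10 against Control-10 (3) it was 6 with all deposited libraries and DESeq2, 2 with only the groups compared, 0 with the 3 libraries left out, and 0 to 3 with 1 library left out. In S1-32 against Control-32 (7) it was 6 with upper-quartile factors, all deposited libraries and the 3 libraries left out, 8 with all panel genes, DESeq2 and no pancreas signal, 4 with the covariate, and 6 to 8 with 1 library left out. In S1-57 against Control-57 (0) it was 1 with DESeq2. In S1-78 against Control-78 (0) it was 1 with the covariate, and 0 to 2 with 1 library left out. In S2-32 against Control-32 (1) it was 2 with upper-quartile factors, DESeq2, only the groups compared and no pancreas signal, and 1 to 2 with 1 library left out. In S3-78 against Control-78 (0) it was 1 with DESeq2, only the groups compared and the 3 libraries left out, and 0 to 1 with 1 library left out. In Direct-78 against Control-78 (4) it was 3 with RLE factors, 2 with upper-quartile factors, 6 with all deposited libraries, 5 with DESeq2, 0 with the covariate, 1 with the 3 libraries left out, and 0 to 6 with 1 library left out. In S2-32 against S1-32 (5) it was 6 with DESeq2, only the groups compared and the 3 libraries left out. In Direct-78 against S3-78 (0) it was 2 with DESeq2, and 0 to 1 with 1 library left out. In Control-57 against Control-10 (1) it was 2 with DESeq2, 0 with only the groups compared, and 0 to 1 with 1 library left out. In Control-78 against Control-10 (1) it was 0 with upper-quartile factors, the covariate, only the groups compared and the 3 libraries left out, 5 with DESeq2, and 0 to 1 with 1 library left out. For the difference of effects between 10 and 32 weeks (1) it was 2 with upper-quartile factors and the covariate, 0 with all deposited libraries, only the groups compared and the 3 libraries left out, 4 with DESeq2, and 1 to 2 with 1 library left out. For the difference of effects between 10 and 78 weeks (7) it was 0 with the covariate, 6 with the 3 libraries left out, and 6 to 7 with 1 library left out. In the other comparisons it stayed at 0.

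Values that changed sign, 16 under the alternatives and 1 with 1 library left out (CEL), were these. With the covariate the difference of effects between 10 and 78 weeks was 0.25 for CEBPB, -1.19 for STAT3, -0.84 for STAT5B, -0.20 for RELA, -0.27 for SERPINA10 and 0.35 for KRT8, and in Direct-78 JAK1 was 0.26, NR3C1 0.20 and SERPINA10 2.37. With all deposited libraries CD4 was -1.48 in S1-10, 2.01 in Direct-78, -1.51 in Control-57 and -0.98 in Control-78 against Control-10, and -3.49 for the difference of effects between 10 and 78 weeks, and CCR2 was 1.06 in Direct-78. CEL in S2-78 was -2.03 without libraries with pancreas signal and ran from -2.01 (without S2-78 mouse 47) to 10.29 with 1 library left out.

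No paired analysis was possible because mouse numbers are not shared between groups. Zeros of ORM3, SOCS3, STEAP4 and LCN2 are bounded by 3 counts per library.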

Other observations

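Collagen genes of stellate cells and fibroblasts were higher in some later S1 and S2 livers than in controls, after COL1A1 had been lower in S1-10 (-2.05, adjusted p = 0.0338, a call lost in 9 of 10 fits with 1 library left out). No marker of these cells was called in S1-32 or S1-57. COL1A1, the main fibrillar collagen chain, measured 63.8 to 970 CPM (median 241) in S1-78 and 9.97 to 42.5 CPM (median 23.7) in Control-78, without overlap, and rose by 3.83 on the log2 scale (adjusted p = 0.000116). COL1A2 and COL3A1 rose with it, by 2.98 (adjusted p = 0.00389) and 2.71 (adjusted p = 0.00407), so that 3 of 8 markers of these cells were higher (beside 0.998% of all genes). All 3 passed with any 1 library left out but not with only the groups compared in the model. COL1A1 was 3.22 (adjusted p = 0.00111) without S1-78 mouse 36. In S2-78 COL1A1 was at 55.1 to 540 CPM (median 262) and rose by 3.50 (adjusted p = 0.000682), and in S2-32 it was at 185 to 628 CPM (median 296) against 26.5 to 111 CPM (median 41.6) in Control-32, a rise of 2.72 (adjusted p = 0.00335). Between control livers of 78 and 10 weeks COL1A1 fell by 2.86 (adjusted p = 0.00407). The call in S2-78 was lost with only the groups compared and the call between controls with all deposited libraries, and S1-78 and S2-78 share the Control-78 mice.

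ALAS2, the enzyme that starts heme synthesis in red cell precursors, was at 310 to 859 CPM (median 404) in Control-78, at 10.2 to 167 CPM (median 40.7) in S3-78 and at 16.2 to 70.3 CPM (median 65.2) in Direct-78. It fell by 3.04 (adjusted p = 0.000785) and by 3.38 (adjusted p = 0.000944), 1 of 3 erythroid markers in each comparison (beside 7.48% and 18.7% of all genes lower). The call in Direct-78 was lost with the depth covariate. ALAS2 was -4.11 (adjusted p = 0.000204) without S3-78 mouse 60 and -2.79 (adjusted p = 0.00972) without Direct-78 mouse 65.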
